A study of Rattus norvegicus with 24 samples.

Results

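The supraoptic nucleus (SON) of the hypothalamus was compared directly with the neurointermediate lobe (NIL) of the pituitary in the spontaneously hypertensive rat (SHR), a strain that develops high blood pressure. All 4 arrays of the SHR SON and all 5 of the SHR NIL were used, which is 9 of the 24 arrays provided, and they were chosen by their titles and not by any measured value. Each array was hybridised with amplified RNA pooled from 5 male rats aged 10 to 13 weeks, except that the rats of NIL array 2 were 10 to 12 weeks old. No treatment is named in the labels. The labels give the pools of a structure as independent, and n counts pools. The rostral ventrolateral medulla (RVLM) is a brainstem region with no known magnocellular hormone neurons. Its 5 SHR arrays were used to show the level each probe set had in a tissue without those cells. Together with the 5 SHR arrays of the paraventricular nucleus (PVN), they also entered fits over all 19 SHR arrays. These fits gave NIL minus RVLM and an alternative SON minus NIL.

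Magnocellular neurons of the SON make vasopressin or oxytocin in their cell bodies, pack the hormone with its carrier neurophysin into dense-core granules and send these down long axons to the posterior pituitary, where the hormones enter the blood. The neural part of the NIL holds those axon endings and pituicytes, the glia of the posterior pituitary, but no magnocellular cell bodies. Its intermediate lobe is an epithelium of melanotrophs, which make pro-opiomelanocortin, cut it to melanocyte-stimulating hormone and are held in check by dopamine. Hormone mRNAs are known to be carried into magnocellular axons, so that both tissues can contain them.

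The promoters of the 3 hormone genes on which the comparison turns are shown because Avp and Oxt were bright in both tissues, whereas Pomc was bright in the NIL and at the floor of the scale in the SON. Each is the 250 bases before the RefSeq gene start in the rat assembly GRCr8, written 5′ to 3′ on the strand of the gene. Capitals mark the E-box letters CANNTG and the nuclear receptor half-site TGACCT, both searched on either strand. Avp lies on the minus strand at chr3:138248523-138248772, Oxt on the plus strand at chr3:138235504-138235753, and Pomc on the plus strand at chr6:32659103-32659352.
Avp: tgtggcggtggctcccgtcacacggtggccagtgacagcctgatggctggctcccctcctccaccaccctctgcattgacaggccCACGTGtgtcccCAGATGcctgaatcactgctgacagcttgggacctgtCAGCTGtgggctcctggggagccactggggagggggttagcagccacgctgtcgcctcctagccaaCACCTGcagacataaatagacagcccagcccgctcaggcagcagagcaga
Oxt: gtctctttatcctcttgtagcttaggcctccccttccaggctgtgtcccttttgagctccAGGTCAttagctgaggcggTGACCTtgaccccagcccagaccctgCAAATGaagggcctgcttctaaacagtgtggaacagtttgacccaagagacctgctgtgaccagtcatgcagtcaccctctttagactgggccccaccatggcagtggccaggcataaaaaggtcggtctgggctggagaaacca
Pomc: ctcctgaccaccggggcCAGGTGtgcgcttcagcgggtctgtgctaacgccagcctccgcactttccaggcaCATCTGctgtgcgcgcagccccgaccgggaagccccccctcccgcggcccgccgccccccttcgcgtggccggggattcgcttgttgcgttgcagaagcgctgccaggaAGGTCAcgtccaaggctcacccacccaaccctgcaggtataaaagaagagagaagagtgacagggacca
Avp had 4 matches to the E-box and none to the half-site, Oxt had 1 and 2, and Pomc had 2 and 1. Of the 33469 rat promoters of this length, 65.5% held an E-box and 14.1% held the half-site, so these letters are common and their presence is a description only. Avp and Oxt are neighbours in the rat genome, with 0 gene models between them in the RefSeq table.

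The values are intensities, a linear brightness per probe set. Array medians were 41.3 to 42.9 in the SON and 41.0 to 45.1 in the NIL. Spearman correlations of an array with the rest of its own group were 0.964 to 0.970 in the SON and 0.956 to 0.966 in the NIL, and correlations with the other group were 0.878 to 0.891. Differences are log2 of SON minus NIL, so a positive value is higher in the SON, and a gene was called at an adjusted p under 0.05 in limma over all 31042 probe sets. Brackets after a gene give its difference ± SE, and a gene said to be higher in a tissue was called. Of the probe sets, 39.7% were called, 8.3% at least 1 higher in the SON and 7.6% at least 1 higher in the NIL, and the groups did not overlap for 34.8%. Of 14217 genes, 6906 were called, which is 48.6%, with 3201 higher in the SON (22.5%) and 3705 higher in the NIL (26.1%). The median gene differed by -0.04. Among called genes, 1272 were at least 1 higher in the SON (8.95%) and 1122 at least 1 higher in the NIL (7.89%). The groups did not overlap for 42.9% of all genes, so a count of called members is read against these shares.

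Among the precursors of peptides made by magnocellular and neighbouring neurons, 10 of 14 measured genes were higher in the SON and 4 in the NIL, with a median difference of 1.92, and the groups overlapped for none of them. Avp, the vasopressin precursor, had intensities of 5609.9, 4592, 4688 and 5335 in the SON arrays and 1056, 1419, 1394, 1060.3 and 1199.9 in the NIL arrays. Every SON array was far above every NIL array. The means were 5056 ± 495 (SD, n = 4) and 1226 ± 175 (SD, n = 5), so that the NIL mean was 24.2% of the SON mean. The difference was 2.06 ± 0.12 (SE), with an adjusted p of 3.3e-09. Oxt, the oxytocin precursor, read 4795, 4183, 4252 and 4822 in the SON arrays and 1493, 1971, 1527, 1325 and 1525 in the NIL arrays, again without overlap. Its NIL mean was 34.7% of the SON mean, and the difference was 1.55 ± 0.12 (SE), with an adjusted p of 6.44e-08. The NIL signal was far above the level of a tissue without magnocellular cells. In the 5 RVLM arrays Avp lay at 13.5 to 22 and Oxt at 3.24 to 13.6, and NIL minus RVLM was 6.07 for Avp (adjusted p = 5.39e-19) and 7.62 for Oxt (adjusted p = 1.12e-15) on the log2 scale. Both are dim in the RVLM, and the values were 5.15 for Avp and 5.94 for Oxt after adding 16 to all intensities. In that contrast 56.5% of all genes were called.

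The brightness of Avp in the SON was close to the top of the arrays, where only 3 to 14 probe sets per array were brighter. In the NIL 309 to 477 probe sets were brighter than Avp. For Oxt 15 to 27 probe sets were brighter in the SON arrays and 189 to 324 in the NIL arrays. Whether signal so near the top was compressed, which would raise the NIL shares of both hormones, was not tested. Each hormone has 1 probe set, and whether it also reads the related neurophysin sequence of the other hormone was not tested. In tissue RNA, fewer cells of a type and less RNA per cell cannot be told apart, and this holds for every difference given here.

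Pdyn, the precursor of the dynorphins that vasopressin neurons store with their hormone, had a NIL share close to that of Avp. It read 2581, 2019, 2551 and 2438 in the SON arrays and 680.5, 485, 641, 723 and 544 in the NIL arrays, a difference of 1.98 ± 0.12 (SE), with an adjusted p of 4.3e-09. Its NIL mean was 25.6% of the SON mean. Among the NIL arrays, however, Pdyn was lowest in array 2, where Avp and Oxt were highest. In the limma fit of NIL minus RVLM, Pdyn was 7.45-fold higher in the NIL. Several other precursors of magnocellular and nearby neurons had a much lower share in the lobe. Cartpt, the precursor of CART peptide, read 2060.3, 1846, 2137 and 2254 in the SON arrays and 117, 148, 113, 130.2 and 114 in the NIL arrays, and the NIL mean was 6.0% of the SON mean (4.07 ± 0.09). Gal, the galanin precursor, read 807, 760.0, 933 and 884 in the SON arrays and 44.1, 57.8, 39.2, 58.5 and 45.8 in the NIL arrays, or 5.80% of the SON mean (4.13 ± 0.11). Cck, the cholecystokinin precursor, read 241, 255, 256 and 235 in the SON arrays and 27.8, 49.7, 37.1, 34.3 and 25 in the NIL arrays, or 14.1% (2.88 ± 0.17). These 3 were also lower in the NIL than in the RVLM, by 2.13 for Cartpt, 3.08 for Gal and 1.76 for Cck on the log2 scale, with adjusted p-values of at most 1.95e-07. The NIL therefore showed Avp, Oxt and Pdyn above the brainstem level and Cartpt, Gal and Cck below it. The RVLM means were 517 for Cartpt, 392 for Gal and 110 for Cck, so for these 3 the RVLM is not a background level. A NIL value below it does not show that the mRNA was absent from the lobe.

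The remaining peptides higher in the SON were dimmer. Npff, the precursor of neuropeptide FF, averaged 134 in the SON and 61.5 in the NIL (1.12 ± 0.12). Trh, the thyrotropin-releasing hormone precursor, averaged 64 in the SON and 17.4 in the NIL, Adcyap1, the precursor of PACAP, 43.5 in the SON and 6.11 in the NIL, and Crh, the corticotropin-releasing hormone precursor, 17.4 in the SON and 4.08 in the NIL. For Crh NIL array 4 stood above the others, and without it the difference was 3.52 instead of 2.91. Intensities under 50 are called dim here. No detection calls were used, and a log2 difference with a dim side moves with how background was removed.

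The 4 precursors higher in the NIL were Penk, Nucb2, Apln and Nmu. Penk, the enkephalin precursor, read 753, 1107, 856, 711 and 815 in the NIL arrays and 204, 338, 229 and 216 in the SON arrays, a difference of -1.78 ± 0.15 (SE), with an adjusted p of 2.46e-07, although its RVLM mean of 1580.3 was higher still. Nucb2, which encodes the nesfatin precursor, read 431, 402, 451, 455 and 417 in the NIL arrays and 231, 200.3, 213 and 186 in the SON arrays (-1.04 ± 0.08). In the limma fit of NIL minus RVLM, Nucb2 was 6.62-fold higher in the NIL. Apln, the apelin precursor, averaged 68.5 in the SON and 199 in the NIL (-1.53 ± 0.11, and -0.64 with its probe sets averaged). Nmu, the precursor of neuromedin U, read 116, 159, 139, 85.4 and 142 in the NIL arrays and 31.4, 39.6, 24.8 and 7.62 in the SON arrays (-2.50 ± 0.38). Every NIL array exceeded every SON array for these genes.

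**Figure D1:**
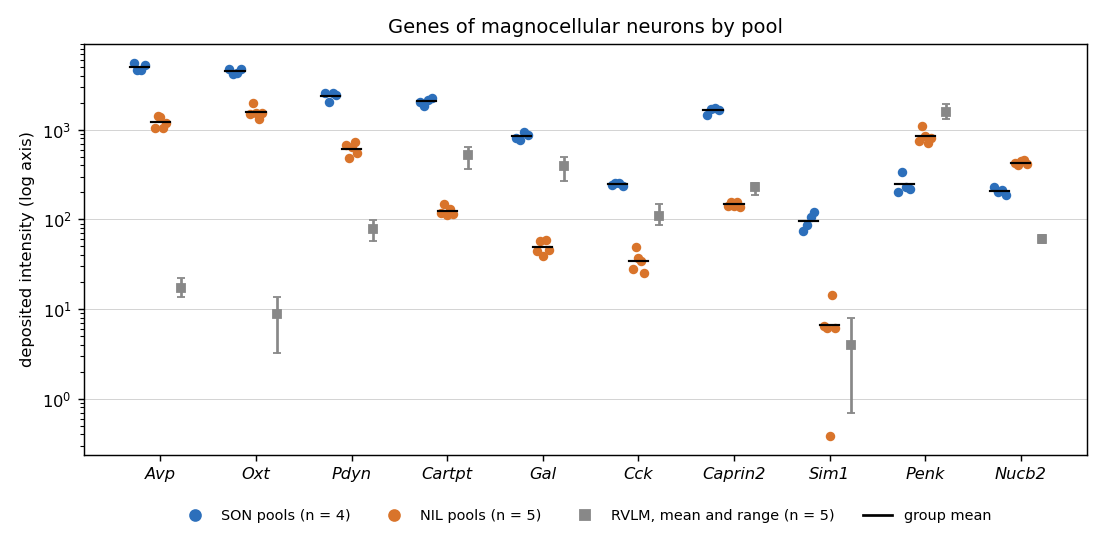
Deposited intensity (log axis) of 10 genes of magnocellular neurons in each SON pool (blue, n = 4) and NIL pool (orange, n = 5), with the group mean as a bar and the mean and range of the 5 RVLM pools in grey. Avp, Oxt and Pdyn lie well above the grey RVLM mark in the NIL, Cartpt, Gal, Cck and Caprin2 lie at or under it, and Penk and Nucb2 are higher in the NIL than in the SON.

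Of 7 measured transcription and RNA-binding factors known from these neurons, 4 were higher in the SON, 1 in the NIL and 2 were not called. Caprin2, an RNA-binding protein known to act on vasopressin mRNA, read 1468, 1700.3, 1748 and 1683 in the SON arrays and 143, 156, 139.8, 158 and 138 in the NIL arrays, a difference of 3.50 ± 0.07 (SE), with an adjusted p of 2.52e-13. The NIL mean was 8.91% of the SON mean and below the RVLM mean of 233. Sim1, needed to form magnocellular neurons, read 74, 87.1, 106 and 120.0 in the SON arrays and 6.53, 6.14, 0.384, 14.4 and 6.1 in the NIL arrays. The difference of 4.51 ± 0.75 became 3.65 without NIL array 3. NIL minus RVLM was 0.61 for Sim1 and was not called (adjusted p = 0.528), but was 1.46 and called without that array (adjusted p = 0.0372). Its partner Arnt2 averaged 559.9 in the SON and 189 in the NIL (1.57 ± 0.09, and 0.93 with its probe sets averaged), with the NIL mean also below the RVLM mean of 275. Pou3f2 was called higher in the NIL (-1.96 ± 0.74), but no array exceeded 17.4, the groups overlapped and the call was lost when any of SON arrays 1 to 3 or NIL arrays 2 to 5 was left out.

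All 9 measured genes of the melanotroph list were higher in the NIL, with a median difference of -3.18, and 8 did not overlap. Whether each member is particular to melanotrophs among pituitary cells was not tested. Pomc, the pro-opiomelanocortin gene, read 806, 687, 993, 1243 and 611 in the NIL arrays and 1.45, 1.67, 2.25 and 1.54 in the SON arrays. The SON was at the floor of the scale, and the difference was -8.94 ± 0.21 (SE), with an adjusted p of 3.83e-13. Because the SON side is dim, the size of that value depends on the scale, and it was -5.59 after adding 16 and -3.78 after adding 64 to all intensities. Adding 16 made the difference smaller by over 1.5 times for 28 of the 177 called genes named with values. Drd2, the dopamine D2 receptor through which dopamine restrains melanotrophs, read 1259, 957, 1291, 1227 and 1115 in the NIL arrays and 33.7, 37.3, 36 and 50.7 in the SON arrays, a difference of -4.89 ± 0.12 (SE), with an adjusted p of 4.56e-13. Tbx19, the T-box factor that switches on Pomc, read 625, 409, 509.9, 517 and 497 in the NIL arrays and 20.2, 38.2, 41.7 and 20.6 in the SON arrays, a difference of -4.14 ± 0.21 (SE), with an adjusted p of 6.9e-10. In both genes the lowest NIL array was several-fold brighter than the highest SON array, and the RVLM means were 75.3 for Drd2 and 27.1 for Tbx19, nearer the SON than the NIL.

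Pcsk2, the convertase that cuts pro-opiomelanocortin into melanocyte-stimulating hormone, read 484, 464, 696, 632 and 581 in the NIL arrays and 49.5, 64, 64.4 and 72.4 in the SON arrays (-3.18 ± 0.13). Pitx1, a pituitary homeodomain factor, averaged 175 ± 27.9 (SD) in the NIL and 15.6 in the SON. Its difference was -3.90 ± 0.49, and -3.18 without SON array 3. Oacyl read 273 to 424 in the NIL and 150.0 to 161 in the SON (-1.15 ± 0.11), and Neurod1, a factor of secretory cells, averaged 40.4 against 16.4 (-1.27 ± 0.22). Esrrg differed by -0.79. Gata2 differed by -0.64 with overlapping groups, and its call was lost without SON array 2 or 3 or NIL array 1 or 3.

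**Figure D2:**
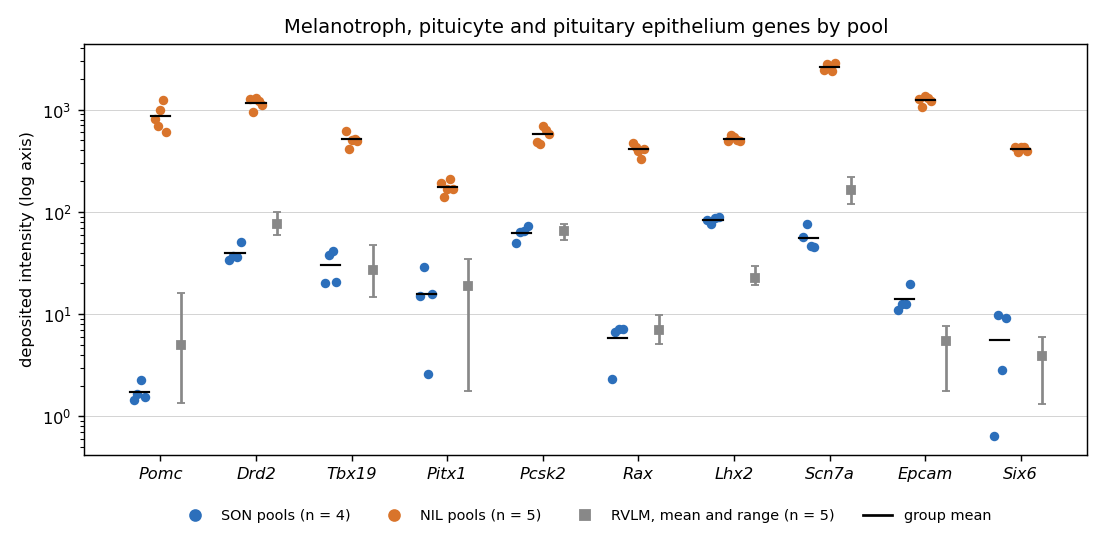
Deposited intensity (log axis) of 10 genes of melanotrophs, pituicytes and pituitary epithelium in each SON pool (blue, n = 4) and NIL pool (orange, n = 5), with group means as bars and the mean and range of the 5 RVLM pools in grey. All NIL pools lie above all SON pools for every gene plotted, and Pomc, Rax, Epcam and Six6 are under 30 in each SON pool.

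Pituicyte genes were present in the same arrays. Of 12 measured, 9 were higher in the NIL, 2 in the SON and 1 was not called. Rax, a homeodomain factor of the hypothalamic floor and posterior pituitary, read 471, 436, 393, 332 and 408 in the NIL arrays and 2.35, 6.68, 7.17 and 7.22 in the SON arrays, a difference of -6.23 ± 0.28 (SE), with an adjusted p of 2.36e-10. Scn7a, a sodium-sensing channel protein of glia, read 2463, 2789.8, 2682, 2366 and 2880.4 in the NIL arrays and 56.3, 75.5, 46.5 and 45.6 in the SON arrays (-5.57 ± 0.13). Lhx2, a LIM homeodomain factor needed for the posterior lobe, read 493, 566, 538, 509.7 and 497 in the NIL arrays and 82.7, 75.6, 86.9 and 88.5 in the SON arrays, a difference of -2.63 ± 0.08 (SE), with an adjusted p of 5.3e-12. Unlike Rax, Lhx2 was measurable in the SON, and the SON mean of 83.4 lay above the RVLM mean of 22.7. Col25a1, a membrane collagen, averaged 214 in the SON and 713 in the NIL (-1.73 ± 0.09), and the vasodilator peptide gene Adm averaged 26.5 in the SON and 247 in the NIL (-3.27 ± 0.21). Nkx2-1, which specifies the ventral hypothalamus and posterior lobe, averaged 50.5 in the SON and 146 in the NIL (-1.53 ± 0.12). Hes1, a target of Notch signalling, differed by -1.59 and Srebf1, a regulator of lipid synthesis, by -1.02. Dio2 was called at -1.63 with no array above 9.96, and its call was lost without SON array 1 or 3 or NIL array 3 or 5.

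The other 2 called members of this list were higher in the SON. Vim, an intermediate filament of glia and of vessel and meningeal cells, read 1968, 1068, 1354 and 900.0 in the SON arrays and 715, 705, 717, 709 and 913 in the NIL arrays (0.77 ± 0.18), and the groups overlapped. Without SON arrays 1 and 3 it differed by 0.39. Hopx averaged 379 in the SON and 188 in the NIL (1.03 ± 0.08).

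Genes of the pituitary epithelium and its stem cells were mostly higher in the NIL, with 8 of 10 measured, 1 higher in the SON and 1 not called. Epcam, an adhesion protein of epithelia, read 1279.6, 1067, 1357, 1298 and 1214 in the NIL arrays and 10.9, 12.6, 12.7 and 19.7 in the SON arrays, a difference of -6.50 ± 0.14 (SE), with an adjusted p of 2.93e-13. Krt18 and Krt8, paired keratins of simple epithelia, averaged 708 against 18.6 (-5.24 ± 0.12) and 422 against 38.9 (-3.48 ± 0.16). Krt19, another keratin, differed by -3.65 and Cldn4, a tight-junction protein, by -2.71. Six6, an eye and pituitary homeodomain factor, read 433, 386, 432, 428 and 390.2 in the NIL arrays and 0.644, 9.87, 2.82 and 9.25 in the SON arrays. The difference of -6.83 ± 0.58 became -6.02 without SON array 1. Cdh1, the epithelial cadherin, differed by -2.38 ± 0.55, by -1.58 without SON array 4, and was not called when all 19 SHR arrays shared the fit (adjusted p = 0.0516). Sox2, a factor of stem cells and also of brain glia, averaged 487 in the SON and 679.5 in the NIL (-0.47 ± 0.10), and this call was lost when its probe sets were averaged (adjusted p = 0.972). Aldh1a2, an enzyme that makes retinoic acid and is known from meninges, was the member higher in the SON (214 to 409.7 against 28.1 to 57.7).

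Pomc, Drd2 and Tbx19 of melanotrophs, Rax, Scn7a and Lhx2 of pituicytes and Epcam and Krt18 of epithelium were thus bright in each NIL array, while Neurod1 and Dio2 were dim, so the NIL is named as the tissue here and not as axon endings alone.

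Hormones of the anterior pituitary, which is not part of the neurointermediate lobe, were bright in the NIL and differed widely between its pools. Of 11 measured genes of that list, 7 were higher in the NIL, 1 in the SON and 3 were not called. Those higher in the SON numbered 2 without SON array 1 or NIL array 1, and 0 when probe sets were averaged. Gh1, growth hormone, read 5471, 6068, 2957, 2494 and 693 in the NIL arrays and 15.3, 19.98, 20.5 and 15.5 in the SON arrays, a difference of -7.29 ± 0.46 (SE), with an adjusted p of 1.02e-08. Prl, prolactin, read 2586, 3677, 331, 523 and 190.3 in the NIL arrays and 2.22, 2.51, 1.85 and 1.51 in the SON arrays, a difference of -8.63 ± 0.69 (SE), with an adjusted p of 1.22e-07. Cga, the subunit shared by the glycoprotein hormones, read 2594, 3649, 1899, 1846 and 1644 in the NIL arrays and 27.2, 34.1, 26.1 and 33.7 in the SON arrays (-6.20 ± 0.19). All 3 were highest in NIL arrays 1 and 2 and lowest in array 5.

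Tshb, the thyrotropin subunit, read 298, 2577, 233, 334 and 52.9 in the NIL arrays and 15.5, 19.3, 20.4 and 22.6 in the SON arrays, and array 2 stood far above the other 4. Its difference was -4.02 ± 0.72, -3.26 without NIL array 2 and -4.67 without array 5. Lhb, the luteinizing hormone subunit, read 606, 471, 276, 400.2 and 221 in the NIL, and Fshb, the follicle-stimulating hormone subunit, 224, 212, 148, 139.9 and 145, against SON means of 54.7 and 35.9. Gnrhr, the receptor of gonadotropes, averaged 49.7 against 9.31 (-2.67 ± 0.41). Pou1f1, the factor of growth hormone, prolactin and thyrotropin cells, read 50.5, 78.7, 7.34, 5.83 and 0.711 in the NIL and was not called (-2.47 ± 1.24). Trhr, the thyrotropin-releasing hormone receptor, was higher in the SON (1.26 ± 0.16), and its sign turned when its probe sets were averaged.

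The summed intensity of the anterior pituitary list was 11994, 16889, 5980.2, 5895 and 3075 in NIL arrays 1 to 5 and 252 to 374 over the SON arrays. The summed melanotroph list did not follow it, with 3891, 3186, 4308, 4309 and 3576 in the same order. Without NIL arrays 1 and 2, the difference was -7.30 for Prl and -6.58 for Gh1. Without them it was -9.03 for Pomc, 2.09 for Avp and 1.66 for Oxt. The part of anterior pituitary tissue in other NIL differences was not tested.

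**Figure D3:**
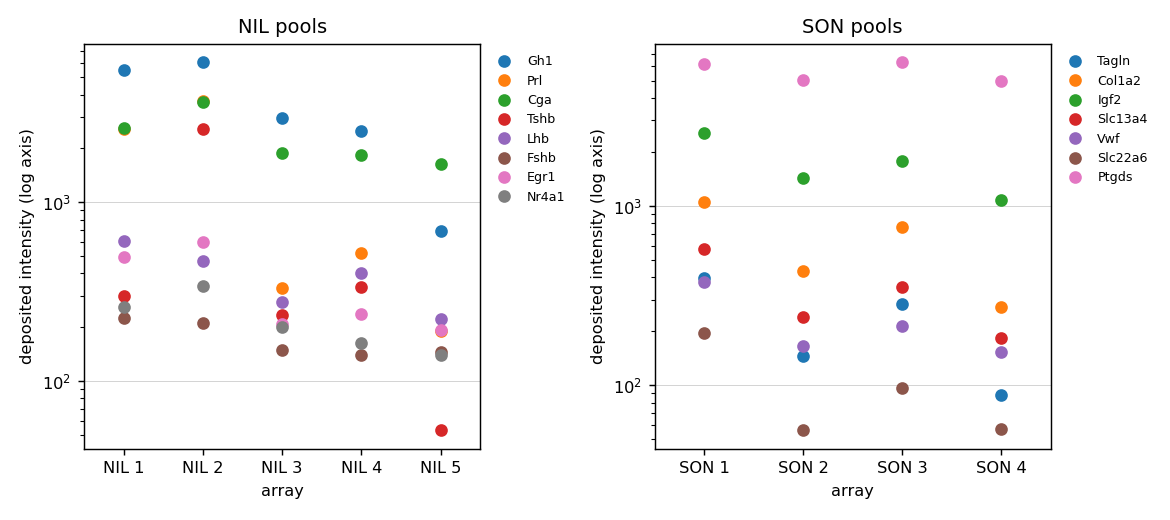
Deposited intensity (log axis) in each NIL pool (left) of anterior pituitary hormone genes and of Egr1 and Nr4a1, and in each SON pool (right) of vascular and meningeal genes. Gh1, Prl and Cga are brightest in NIL arrays 1 and 2, Tshb in array 2 alone, and Tagln, Col1a2 and Igf2 are brighter in SON arrays 1 and 3 than in arrays 2 and 4.

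Glial genes of the brain separated the tissues in the other direction. Of 13 astrocyte genes, 12 were higher in the SON, 0 in the NIL and 1 was not called, with a median difference of 2.25. Agt, angiotensinogen, which astrocytes make in the brain, read 2903, 2314, 2328 and 2322 in the SON arrays and 4.04, 14.5, 5.07, 19.6 and 6.24 in the NIL arrays, a difference of 8.24 ± 0.35 (SE), with an adjusted p of 1.5e-10. Gfap, the astrocyte filament, read 4185, 3248, 3806 and 3838 in the SON arrays and 152, 236, 168, 169 and 254 in the NIL arrays (4.30 ± 0.14). Aqp4, the water channel of astrocyte endfeet, read 3074, 2769, 3209.8 and 3468 in the SON arrays and 218, 249.5, 235, 223 and 255 in the NIL arrays (3.74 ± 0.08). Gfap and Aqp4 were above 100 in each NIL array, whereas Agt was under 20. Aldh1l1, an astrocyte enzyme of folate metabolism, averaged 687 in the SON and 18.8 in the NIL. The uncalled member, the glutamate transporter gene Slc1a2, was dim in both tissues on its brightest probe set (16.3 and 12.2).

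Of 16 oligodendrocyte and myelin genes, 13 were higher in the SON, 0 in the NIL and 3 were not called. Mbp, myelin basic protein, read 2816, 2729, 2666 and 2772 in the SON arrays and 52.7, 70.3, 43.2, 51.9 and 45.3 in the NIL arrays (5.74 ± 0.12, and 3.15 with its probe sets averaged). Mobp, another myelin protein, averaged 674 in the SON and 7.46 in the NIL, and its difference of 7.18 ± 0.73 became 6.34 without NIL array 5. Opalin, a membrane protein of myelin, differed by 5.62 ± 0.41, and Olig1, a lineage factor, by 4.49 ± 0.24. Microglia and macrophage genes did not separate the tissues as a list, with 3 of 14 higher in the SON, 4 in the NIL and 7 not called, and a median of -0.08. C1qa, a complement component, averaged 372 in the SON and 612 in the NIL (-0.72 ± 0.13). P2ry12, a purine receptor of brain microglia, averaged 194 in the SON and 119.9 in the NIL (0.72 ± 0.11), and Mrc1, a receptor of perivascular macrophages, 84.6 in the SON and 26.6 in the NIL (1.72 ± 0.21). Csf1r, the growth factor receptor of both cell kinds, averaged 196 in the SON and 175 in the NIL and was not called (adjusted p = 0.258).

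Genes of vessels were called in both directions. The SON lies behind the blood-brain barrier and the posterior pituitary has fenestrated capillaries. Of 9 barrier genes, 5 were higher in the SON, 2 in the NIL and 2 were not called. Without SON arrays 1 and 3 these became 5 and 1. Cldn5, the tight-junction protein of brain endothelium, read 750.2, 498, 583 and 498 in the SON arrays and 44.7, 25.3, 35.7, 54.4 and 44.9 in the NIL arrays, a difference of 3.87 ± 0.19 (SE), with an adjusted p of 5.03e-10. The efflux pumps Abcb1a and Abcg2 differed by 3.10 and 2.95, and the carrier Slco1a4 by 3.01. The barrier genes higher in the NIL were Ocln, a tight-junction protein (337 to 414 against 88.8 to 92.4, -2.03 ± 0.09), and Mfsd2a, a lipid carrier of brain endothelium, which averaged 88 in the SON and 119.6 in the NIL with overlapping groups (-0.43 ± 0.12). Its call was lost without SON arrays 1 and 3 (-0.30, adjusted p = 0.132). The glucose carrier gene Slc2a1 averaged 279.9 in the SON and 232 in the NIL and was not called (adjusted p = 0.0709).

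Of 16 genes of fenestrated endothelium and mural cells, 7 were higher in the NIL, 5 in the SON and 4 were not called. Those higher in the SON were Tek, Vwf, Acta2, Tagln and Abcc9, and they numbered 3 without SON array 1, 2 without SON arrays 1 and 3, and 3 with all 19 SHR arrays. Plvap, which forms the diaphragms of fenestrae, read 223, 220.0, 219, 253 and 209.6 in the NIL arrays and 6.16, 10.1, 9.32 and 10.5 in the SON arrays, a difference of -4.65 ± 0.17 (SE), with an adjusted p of 2.3e-11. Esm1, a secreted endothelial proteoglycan, read 524, 583, 562, 398 and 401 in the NIL arrays and 25.9, 6.6, 16.4 and 12.1 in the SON arrays (-5.15 ± 0.29). Kdr, the main vascular endothelial growth factor receptor, averaged 90.8 in the SON and 321 in the NIL (-1.89 ± 0.21, and -1.11 with its probe sets averaged), and Emcn, an endothelial mucin, 145 in the SON and 286 in the NIL (-0.95 ± 0.12). Of the members higher in the SON, Tagln, a smooth muscle protein, read 397, 146, 285 and 88.3 in the SON arrays and 4.88, 3.93, 3.6, 1.94 and 5.39 in the NIL arrays, and Vwf, a clotting factor of larger vessels, read 375, 165, 214 and 154 in the SON arrays and 13.4, 16.4, 14.1, 11.1 and 13.3 in the NIL arrays. Both were brightest in SON arrays 1 and 3. Without these arrays Tagln differed by 4.92 and Vwf by 3.55.

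Of 13 genes of meninges and choroid plexus, 7 were higher in the SON, 2 in the NIL and 4 were not called, and 4 genes were called when all 19 SHR arrays shared the fit. Igf2, a growth factor of meningeal cells, read 2558, 1436, 1789 and 1084 in the SON arrays and 213, 195, 183, 256 and 236 in the NIL arrays (2.94 ± 0.19), but its call was lost when its probe sets were averaged (adjusted p = 0.157). Slc13a4, a sulfate carrier, averaged 338 in the SON and 81 in the NIL, and Ptgds, prostaglandin D synthase, 5622 in the SON and 3093 in the NIL. The matrix proteoglycans Dcn and Lum were higher in the NIL, with means of 1157 against 333 and 717 against 396. Calls of Slc13a4, Ptgds and Lum were lost with all 19 SHR arrays (adjusted p = 0.111, 0.225 and 0.219). Col1a2, a fibrillar collagen, read 1046, 435, 763 and 274 in the SON arrays and 586, 389.5, 502, 632 and 574 in the NIL arrays and was not called (0.08 ± 0.29, adjusted p = 0.855). The summed list was 8046 to 13246 in the SON and 6138 to 7579 in the NIL, and the highest values were those of SON arrays 1 and 3. The part of meningeal tissue in other SON differences was not tested. Both measured red blood cell genes were higher in the NIL, with Hbb, a beta globin, at 2755 to 4565 against 826 to 1364 and Alas2, the heme enzyme of red cells, at 94.5 to 179.6 against 37 to 47.1.

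Genes of neurons in general were higher in the SON but were not at zero in the NIL. Of 18 pan-neuronal genes, 15 were higher in the SON, 2 in the NIL and 1 was not called, with a median of 1.46, and averaged probe sets gave 14 and 1. Stmn2, a microtubule regulator of axons, read 1759, 1749.9, 1893 and 1875 in the SON arrays and 149, 174, 155, 137 and 147 in the NIL arrays (3.59 ± 0.09). Tubb3, neuronal tubulin, averaged 795 in the SON and 79.4 in the NIL (3.34 ± 0.12, and 1.86 with its probe sets averaged), and the RNA-binding protein gene Elavl3 318 in the SON and 37.9 in the NIL (3.01 ± 0.21). Gap43, a growth cone protein, averaged 898 in the SON and 297 in the NIL (1.61 ± 0.14), and its sign turned when its probe sets were averaged. Of 14 genes of neurofilaments and the axonal cytoskeleton, 13 were higher in the SON, 0 in the NIL and 1 was not called. The neurofilament genes Nefm, Nefl and Nefh averaged 586, 546 and 271 in the SON and 60.4, 95.7 and 86.7 in the NIL. Prph, peripherin, differed by 2.88 ± 0.20 and Mapt, tau, by 1.26 ± 0.10.

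A list of 14 mRNAs known from axons in other work had 9 genes higher in the SON, 1 in the NIL and 4 not called, with a median of 0.40. The genes higher in the NIL numbered 3 without SON array 1 or after quantile normalization, and 2 in 9 further settings. Nefm, Nefl, Prph, Gap43 and Vim belong to it and to lists above. Uchl1, a ubiquitin enzyme abundant in neurons, read 1176, 1155, 1229 and 1001 in the SON arrays and 412, 371, 334, 399.7 and 386 in the NIL arrays (1.60 ± 0.09). Cox4i1, a subunit of cytochrome oxidase, averaged 2818 in the SON and 2103 in the NIL (0.43 ± 0.09). Eef1a1, a translation elongation factor, averaged 4513 in the SON and 4641 in the NIL and was not called (adjusted p = 0.837). Of 18 axonal motor genes, 11 were higher in the SON, 1 in the NIL (2 without NIL array 4) and 6 were not called. Kif5a, a neuronal kinesin, averaged 337 in the SON and 68 in the NIL (2.32 ± 0.10). Klc1, a kinesin light chain, averaged 1557 in the SON and 318 in the NIL (2.30 ± 0.07, and 0.64 with its probe sets averaged), although 1 of its other probe sets was called the opposite way. Dync1i1, a dynein intermediate chain, was the member higher in the NIL (-0.50 ± 0.09).

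Of 23 genes of synaptic vesicles and exocytosis, 14 were higher in the SON, 1 in the NIL and 8 were not called, with a median of 0.86. Cplx1, complexin, read 541, 747, 439 and 570.2 in the SON arrays and 52.4, 49.3, 67.4, 75 and 64.7 in the NIL arrays (3.22 ± 0.14). Napb and Nsf, which recycle the fusion complex, differed by 2.86 and 1.90, and Rab3a, a vesicle GTPase, by 1.66. Cadps2, a priming factor of dense-core granules, averaged 577 in the SON and 190.5 in the NIL (1.61 ± 0.09). Syt4, a synaptotagmin of secretory granules, averaged 1562 in the SON and 1354 in the NIL and was not called (adjusted p = 0.0677). Of 16 postsynaptic genes, 6 were higher in the SON, 2 in the NIL and 8 were not called. Shank1, a scaffold protein, averaged 425 in the SON and 129.7 in the NIL (1.74 ± 0.15, and 1.13 with its probe sets averaged), and Nrgn, neurogranin, 123 in the SON and 23.9 in the NIL (2.39 ± 0.21). Ppp1r1b, a phosphoprotein downstream of dopamine receptors, was higher in the NIL at 309.7 to 479 against 95 to 125 (-1.73 ± 0.12). Dlg4 was also called higher in the NIL (-0.85 ± 0.11), but 1 of its other probe sets was called the opposite way.

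Several transmitter genes of the tissue around magnocellular neurons were dim in the lobe. Of 17 GABA genes, 11 were higher in the SON, 1 in the NIL and 5 were not called, with a median of 1.66. Gad1, which makes GABA, read 554, 929.7, 449 and 513 in the SON arrays and 5.94, 9.77, 3.75, 4.75 and 8.66 in the NIL arrays, a difference of 6.58 ± 0.29 (SE), with an adjusted p of 1.86e-10. With probe sets averaged Gad1 differed by 2.97 and Gabrb2 by 1.91. Slc32a1, the vesicular GABA carrier, averaged 133 in the SON and 7.19 in the NIL (4.34 ± 0.36). Gabrb2, a subunit of the GABA-A receptor, averaged 650.4 in the SON and 34.3 in the NIL, and Gabbr1, of the GABA-B receptor, 1289.6 in the SON and 245 in the NIL. Of 23 glutamate genes, 11 were higher in the SON, 5 in the NIL and 7 were not called. In both tissues 11 of the 23 were dim. Those higher in the NIL numbered 3 without SON array 3 or NIL array 1. Slc17a6, the vesicular glutamate carrier known from magnocellular neurons, read 576, 670.2, 677 and 686 in the SON arrays and 50.9, 40.6, 60.4, 55.8 and 70.01 in the NIL arrays (3.59 ± 0.13). Grin1, the obligatory NMDA receptor subunit, averaged 245 in the SON and 82.9 in the NIL (1.59 ± 0.13), whereas Grik4, a kainate receptor subunit, averaged 20.7 in the SON and 62 in the NIL (-1.61 ± 0.21). Grm8, a metabotropic receptor, read 570.4, 279, 1410.0, 138 and 366 in the NIL and 1.55 to 7.13 in the SON, but of its other probe sets 1 was called the opposite way and 1 was not called. The difference was -6.53, and -1.23 with probe sets averaged. Grm8 was highest in NIL array 3, and the source of its spread between NIL pools was not tested.

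Ion channel genes were higher in the SON in most called cases. Of 29 potassium channel genes, 14 were higher in the SON, 4 in the NIL and 11 were not called. Kcnip4, an accessory subunit of A-type channels, averaged 545 in the SON and 36.1 in the NIL (3.92 ± 0.12), and Kcna1, an axonal channel, 54.4 in the SON and 2.27 in the NIL (4.64 ± 0.41). The subunits of the large-conductance calcium-activated channel were called in opposite directions. Kcnma1, its pore, read 564, 540.5, 594, 518 and 498 in the NIL arrays and 44.7, 46.1, 55.6 and 34.6 in the SON arrays, a difference of -3.59 ± 0.13 (SE), with an adjusted p of 1.84e-11, and -1.72 with its probe sets averaged. Kcnmb4, its neuronal beta subunit, read 663, 619, 673 and 580.1 in the SON arrays and 94.9, 84.9, 68.6, 71.3 and 78.9 in the NIL arrays, a difference of 3.01 ± 0.11 (SE), with an adjusted p of 3.14e-11. Of 31 sodium, calcium, HCN and TRP channel genes, 15 were higher in the SON, 5 in the NIL and 11 were not called. These became 12 and 3 without SON array 2, and 14 and 3 without NIL array 1. Scn1a and Scn2a, sodium channels of neurons, averaged 163 and 276 in the SON and 44.4 and 94.1 in the NIL. Cacna1b, the N-type calcium channel of nerve endings, averaged 195 in the SON and 55 in the NIL (1.89 ± 0.18). Cacna1d, an L-type channel of endocrine cells, was higher in the NIL at 173 to 211 against 35.9 to 61.1 (-2.06 ± 0.14), a call that was lost when its probe sets were averaged (adjusted p = 0.852). Trpm3 averaged 104 in the SON and 307 in the NIL (-1.55 ± 0.11).

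Of 30 receptor genes for hormones and transmitters that act on the lobe, 9 were higher in the SON, 4 in the NIL and 17 were not called. The share called was 43.3%, against 48.6% over all genes. Dim in both tissues were 20 of the 30, and the filter at the 60th percentile left 2 calls. Avpr1b, the vasopressin receptor of pituitary cells, read 96.8, 57, 51.5, 73.4 and 83.5 in the NIL arrays and 17.7, 12.5, 16.3 and 19.7 in the SON arrays (-2.10 ± 0.23). Cnr1, the cannabinoid receptor, read 259.5, 292, 264 and 262 in the SON arrays and 21.7, 17.6, 12.4, 17.8 and 15.6 in the NIL arrays (4.02 ± 0.16), and Htr2c, a serotonin receptor, averaged 358 in the SON and 81.7 in the NIL (2.11 ± 0.14). With probe sets averaged they differed by 2.48 and 0.97. Nr3c1, the glucocorticoid receptor, averaged 242 in the SON and 234 in the NIL and was not called (adjusted p = 0.584). Of 10 monoamine genes, 3 were higher in the SON, 2 in the NIL and 5 were not called. The share called was 50%, near that over all genes. The counts became 2 and 1 without NIL array 2 or with all 19 SHR arrays. They were 3 and 1 without NIL array 5, without the intensity trend or with the array number as a block. Th, the first enzyme of catecholamine synthesis, read 524, 433, 524 and 425 in the SON arrays and 18.9, 21.9, 20.8, 43.7 and 24.5 in the NIL arrays (4.27 ± 0.19). Dopamine axons end in the NIL. Th was dim in each of its arrays, and Gch1, which makes the cofactor of that enzyme, was higher there (58.8 against 17.4, -1.73 ± 0.20).

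The genes of hormone granules split by member. Of 24 measured, 10 were higher in the NIL, 5 in the SON and 9 were not called, with a median of -0.10. The granins Chgb, Chga and Scg2, which help granules form, were all higher in the NIL. Chgb read 2189.8, 2088, 2711, 2844 and 2448 in the NIL arrays and 500.4, 459, 628 and 556 in the SON arrays (-2.18 ± 0.10), Chga averaged 369 in the SON and 1269.7 in the NIL (-1.75 ± 0.11) and Scg2 averaged 735 in the SON and 1997 in the NIL (-1.43 ± 0.08). Rab27a, a GTPase that brings granules to the membrane, read 750.4, 742, 862, 797 and 721 in the NIL arrays and 50.4, 50.8, 47.3 and 50.6 in the SON arrays, a difference of -3.95 ± 0.08 (SE), with an adjusted p of 2.52e-13. Its partners Sytl4, granuphilin, and Rph3al differed by -4.38 ± 0.23 and -1.97 ± 0.17. Vgf, a granule protein and peptide precursor of neurons, went the other way and read 564, 618, 494 and 482 in the SON arrays and 15.2, 23, 18.6, 19.5 and 22.9 in the NIL arrays, a difference of 4.79 ± 0.14 (SE), with an adjusted p of 2.28e-12. Other members did not pass the test. Cpe, the carboxypeptidase that trims prohormones, averaged 3696 in the SON and 3968 in the NIL, Pcsk1n, an inhibitor of convertases, 1387 in the SON and 1496 in the NIL, and Scg5, a chaperone of the convertase of melanotrophs, 2216 in the SON and 2596 in the NIL (adjusted p = 0.519, 0.461 and 0.0504). 

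Of 38 genes of protein folding in the endoplasmic reticulum and transport to the Golgi, 22 were higher in the NIL, 4 in the SON and 12 were not called, with a median of -0.28. With all 19 SHR arrays in the fit these became 14 and 3. Sec23b, a coat protein of export vesicles, read 759.7, 856, 808, 716 and 806 in the NIL arrays and 275, 241, 248 and 259 in the SON arrays (-1.61 ± 0.08), and Sec24d, its partner, averaged 163 in the SON and 398 in the NIL (-1.28 ± 0.09). Kdelr3, a retrieval receptor, averaged 51.7 in the SON and 161 in the NIL, Herpud1, a stress-induced membrane protein, 187 in the SON and 523 in the NIL, and Tmed2, a cargo receptor, 660.2 in the SON and 1227 in the NIL. Canx, the chaperone calnexin, was higher in the SON (0.85 ± 0.09, and 0.42 with its probe sets averaged). Hspa5, the main chaperone of the compartment, averaged 1943 in the SON and 2166 in the NIL and was not called (adjusted p = 0.189).

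Genes of the mitochondrial respiratory chain differed by little but in 1 direction. Of 43 measured, 33 were higher in the SON, 0 in the NIL and 10 were not called, with a median of 0.45. Quantile normalization gave 30 and 2, and the fit over all 19 SHR arrays gave 25 and 0. Cox5b, a subunit of cytochrome oxidase, read 2336, 2567, 2268 and 2416 in the SON arrays and 1263, 1439.7, 1327, 1229.8 and 1294 in the NIL arrays (0.88 ± 0.08). Sdha of complex II averaged 821 in the SON and 425 in the NIL (0.96 ± 0.08), and Ndufs1 and Ndufb8 of complex I differed by 0.89 and 1.07. Of 26 cytosolic ribosomal protein genes, 6 were higher in the NIL, 0 in the SON and 20 were not called, with a median of 0.01. That count was 9 and 1 with values as deposited, 12 and 0 after quantile normalization, 1 and 0 with all 19 SHR arrays, and 3 and 0 without SON array 3 or NIL array 5 or with the array number as a block. Rpl22 averaged 1211 in the SON and 1883 in the NIL (-0.62 ± 0.08) and Rpl18 1959 in the SON and 2646 in the NIL (-0.42 ± 0.09), a call that was lost with all 19 SHR arrays (adjusted p = 0.0584).

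**Figure D4:**
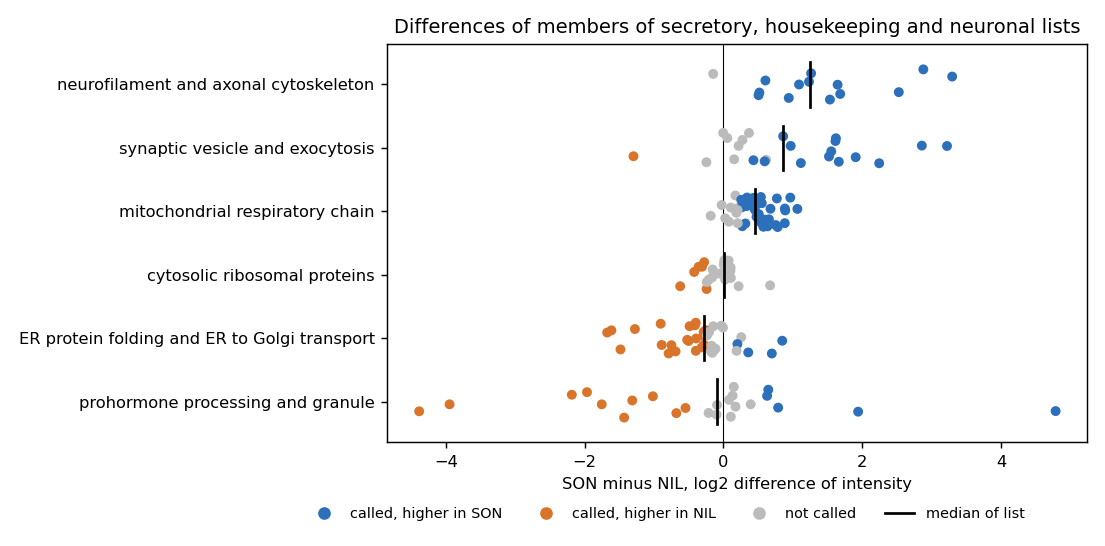
SON minus NIL log2 difference of intensity for each measured member of 6 gene lists, with called genes higher in the SON in blue, called genes higher in the NIL in orange, uncalled genes in grey and the median of each list as a bar. The respiratory chain sits at a median of 0.45 with no gene called in the NIL (2 were after quantile normalization), whereas the endoplasmic reticulum list sits at -0.28 and the granule list spreads from -4.38 to 4.79.

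Immediate early genes, which are switched on within minutes of stimulation, had 6 of 16 higher in the NIL, 0 in the SON and 10 not called. The share called was 37.5%, below the 48.6% over all genes, and 8 of the 16 were dim in both tissues. Egr1 read 492, 596, 208, 237 and 193 in the NIL arrays and 80.6, 106, 94 and 79.3 in the SON arrays (-1.78 ± 0.29) and Nr4a1 259.9, 339, 202, 164 and 139 in the NIL arrays and 60.7, 83.9, 93.6 and 72.4 in the SON arrays (-1.44 ± 0.22). Both were highest in NIL arrays 1 and 2, the arrays with the most Gh1 and Prl, and the part of anterior pituitary tissue in this was not tested. Without these 2 arrays Egr1 differed by -1.21 and Nr4a1 by -1.08, and the list still had 6 calls. Dusp1, a phosphatase of the same response, differed by -0.90 ± 0.19, a call that was lost when its probe sets were averaged (adjusted p = 0.566). Fos read 57.3, 208, 186 and 66.7 in the SON arrays and 132, 156, 69.8, 74.6 and 55.4 in the NIL arrays and was not called (0.30 ± 0.39). Of 16 proliferation genes, 6 were higher in the NIL, 0 in the SON and 10 were not called. The share called was again 37.5%, and 2 calls were made with all 19 SHR arrays. Dim in both tissues were 12 of these 16, and the filter at the 60th percentile left 1 call. Mcm2, a replication helicase subunit, averaged 30.4 in the SON and 83.6 in the NIL (-1.47 ± 0.17), and Pcna, the replication clamp, 385 in the SON and 650.0 in the NIL (-0.75 ± 0.09).

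Of 18 forebrain transcription factor genes, 7 were higher in the SON, 2 in the NIL and 9 were not called. In both tissues 11 of the 18 were dim. Nr2f2 averaged 289 in the SON and 111 in the NIL (1.42 ± 0.16) and Dlx1, a factor of GABA neurons, 54.4 in the SON and 10.6 in the NIL (2.41 ± 0.32). Six3, a factor of the rostral forebrain and pituitary, was dim but read 35.6, 31.5, 34.3, 26.2 and 35.7 in the NIL and 0.765 to 4.06 in the SON (-4.51 ± 0.50).

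Called genes without overlap, with a mean of at least 100 in the higher tissue and without a placeholder symbol (such as LOC), were ranked. The 12 largest differences in each direction are named next. In the SON these were Agt, Mobp, Gad1, Mbp, Tagln and Opalin, given above, together with Itih3, Ret, Opn3, Slc5a7, Ttc9b and Glra2. Itih3, a hyaluronan-binding serum protein also made in brain, read 3534, 3166, 3089 and 3613 in the SON arrays and 18, 30.4, 21.3, 23.8 and 29.2 in the NIL arrays (7.13 ± 0.13). Ret, the receptor of glial cell line-derived neurotrophic factor, averaged 229.8 in the SON and 3.73 in the NIL (6.25 ± 0.44), with its other 2 probe sets called the same way. Slc5a7, the choline carrier of cholinergic neurons, averaged 152 in the SON and 3.3 in the NIL, and Glra2, a glycine receptor subunit, 111 in the SON and 2.32 in the NIL. Opn3, an opsin of deep tissues, averaged 351 in the SON and 6.75 in the NIL and Ttc9b 147 in the SON and 2.96 in the NIL.

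In the NIL they were Pomc, Prl, Gh1, Six6, Grm8, Epcam and Rax, given above, with Csap1, Fndc3c1, Chia, Capn6 and Otx2. Csap1 read 693, 996, 869.8, 691 and 821 in the NIL arrays and 0.699, 0.648, 1.07 and 2.02 in the SON arrays (-9.65 ± 0.29). Many of these genes are at the floor in the SON, so their order depends on the scale. After adding 16 Csap1 differed by -5.58 and Gh1 by -6.37. Capn6, a calpain without protease activity, read 419, 440.4, 409, 396 and 402 in the NIL and at most 3.22 in the SON. Chia, an acidic chitinase, read 668, 525, 1267, 1753 and 1187 in the NIL and was dim in the SON (-7.37 ± 0.50, and -7.99 without SON array 2). Fndc3c1 averaged 1049.5 in the NIL, and its difference of -8.41 ranged from -9.13 to -7.64 when SON array 2 or 4 was left out. Otx2, a factor of the pituitary stalk and forebrain, read 83, 162, 101, 103 and 85 in the NIL, but its other probe set was called the opposite way, and the difference of -6.60 became -2.15 with both averaged.

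**Figure D5:**
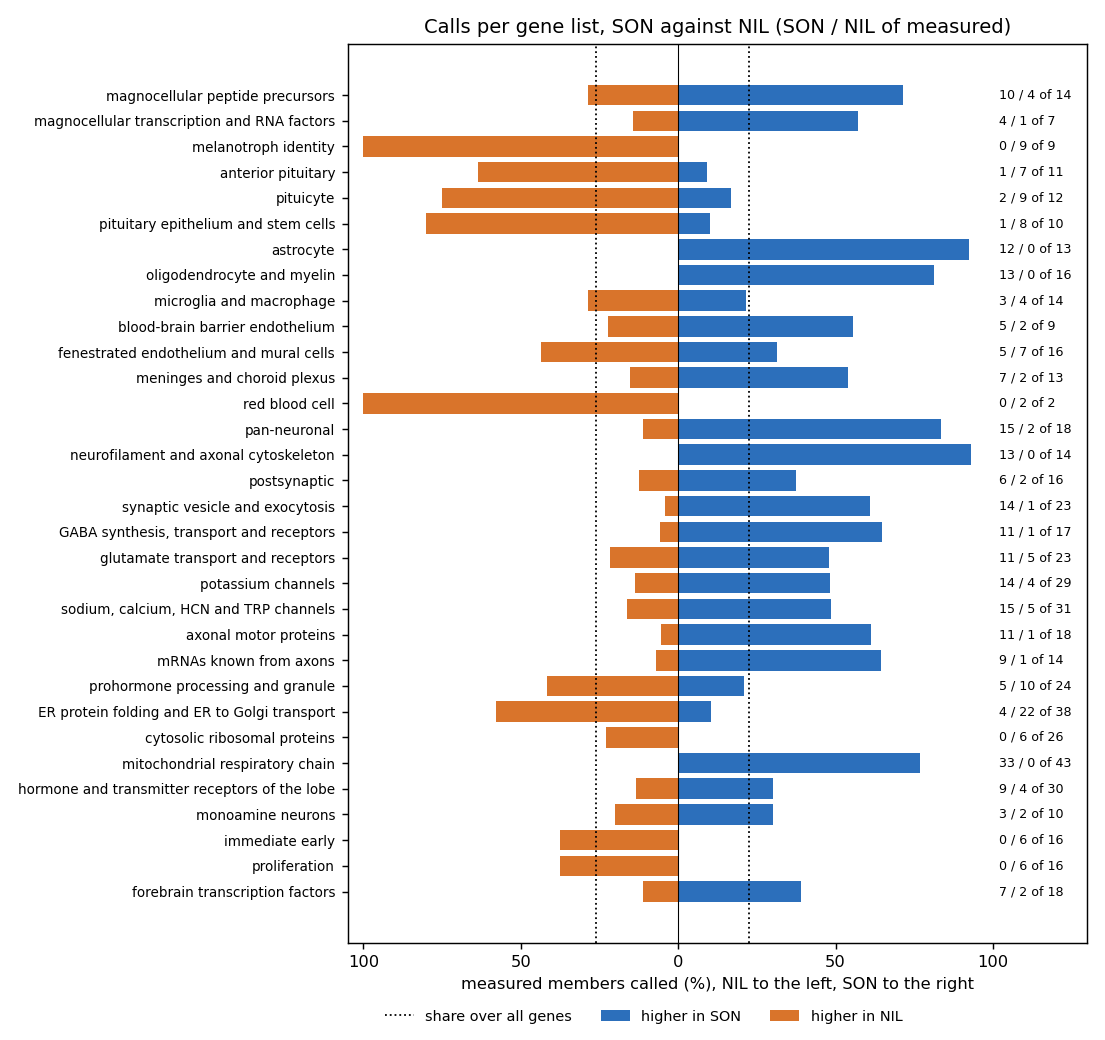
Percent of the measured members of each of 32 gene lists that were called higher in the SON (blue, to the right) or in the NIL (orange, to the left), with dotted lines at the shares over all 14217 genes (22.5% and 26.1%). Astrocyte, myelin, neurofilament and respiratory chain lists extend only to the SON side. For the respiratory chain, 2 genes were called in the NIL after quantile normalization. Melanotroph, red blood cell, ribosomal protein, immediate early and proliferation lists extend only to the NIL side. For ribosomal proteins, 1 gene was called in the SON with values as deposited. The immediate early and proliferation lists each had 37.5% of members called, against 48.6% over all genes.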

How the data were processed

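Messenger RNA was measured on Affymetrix rat 230 2.0 arrays, 1 pool of 5 rats per array. The authors deposited intensity, a linear signal for each probe set, made with GCOS 1.2 per the submitters' processing notes. Settings of that program are not given in the sources that were read. The deposited arrays each had a 2% trimmed mean of about 100, so they had been scaled to a common level by the authors' processing.

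Of 31099 probe sets, 57 controls were left out. No low values were filtered out. Intensities were taken to log2 without a pseudocount, shifted to a common median, and compared with lmFit and eBayes of limma 3.58.1 (intensity trend) in R 4.3.3 over the 4 SON and 5 NIL arrays. Calls used a Benjamini-Hochberg adjusted p under 0.05 over 31042 probe sets. SE is that of the moderated fit. SDs are of intensity. A gene is its brightest probe set that names 1 gene in the array annotation of 2016, which gave 14217 genes (20826 probe sets named 1 gene, 436 several and 9780 none). NIL minus RVLM was fitted over the 19 SHR arrays (NIL, PVN, SON and RVLM), so its p-values also use the spread of the PVN and SON pools. With NIL and RVLM arrays only, the adjusted p in limma was 4.9e-14 for Avp and 2.15e-11 for Oxt. Promoters came from RefSeq (GRCr8).

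Avp, Oxt, Drd2, Tbx19, Lhx2 and Pomc were always named, with the 12 largest differences each way among genes without a placeholder symbol. Up to 8 called and 3 uncalled members of a list, and all members of the hormone and marker lists, could also be named. The comparison, its marker genes and the gene lists were chosen with earlier results of these data known. Alternatives were other scalings, pseudocounts of 16 and 64, filters at the 40th and 60th percentile, no trend, arrayWeights, the array number as a block, 19 arrays, averaged probe sets and each array left out. Leaving out NIL arrays 1 and 2, or SON arrays 1 and 3, was added after the data had been seen. Data were also simulated for SON minus NIL with 200 changed probe sets among 31042. Of differences of 1, 78% were called, and of differences of 0.5, 25%, with 5 false calls. The changed probe sets were drawn above the 40th percentile of mean log2 intensity, and noise was normal and independent. In the data 39.7% of probe sets were called, which loosens the adjusted threshold, so these percentages do not give the power of the comparison.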

Additional observations from a re-analysis of the deposited data

Results flagged for a closer look

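For each of the 190 genes named with values, the highest and the lowest array of each tissue was set against the others of its group. At the 95% critical value of Dixon, 22 of 380 groups held an array that stood apart, and chance alone gives about 1 in 20. Among bright genes with a large gap, Tshb read 2577 in NIL array 2 against 52.9 to 334 in the other NIL arrays, and Agt read 2903 in SON array 1 against 2314 to 2328.

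In SON array 2, Opalin read 196 against 100.5 to 108, Nefm 728 against 519.6 to 549.5, and Cnr1 292 against 259.5 to 264. In SON array 1, Adm read 42.6 against 20.2 to 22.7, Slc17a6 576 against 670.2 to 686, Scg5 2143 against 2235 to 2247, and Rax 2.35 against 6.68 to 7.22. SON array 3 had Crym at 81.5 against 59.4 to 59.8, Rab27a at 47.3 against 50.4 to 50.8, and Pou1f1 at 13.0 against 0.505 to 2.52. In SON array 4, Grin1 read 207 against 254 to 260.3, Kif5a 369 against 323 to 329, and Oacyl 161 against 150.0 to 152.

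In NIL array 4, Crh read 13.3 against 0.471 to 2.57, Rpl22 1690.2 against 1893 to 1961, and Th 43.7 against 18.9 to 24.5. NIL array 5 had Vim at 913 against 705 to 717 and Cd74 at 704 against 544 to 586. NIL array 2 had Otx2 at 162 against 83.0 to 103 and Pou3f2 at 17.4 against 1.09 to 4.17.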

How the results depend on the processing

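Probe sets called numbered 12333 as reported, 8059 with a filter at the 60th percentile, which tests fewer probe sets, and 10467 with all 19 SHR arrays. Leaving out each array in turn gave 11011 to 12477. Without NIL arrays 1 and 2 there were 10509 calls, and without SON arrays 1 and 3 there were 9947. In each of these settings the calls shared with the reported ones had the same sign, except for 13 genes when probe sets were averaged. The labels do not say whether arrays of the 2 tissues with the same number came from the same rats. Correlations of the deviations of such arrays for numbers 1 to 4 were 0.00, 0.04, 0.02 and 0.00. Between different tissues these values cannot show whether rats were shared. With the array number as a block, 11439 probe sets were called.

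The filters at the 40th and 60th percentile lowered the count of called members by over 1.5 times in 4 and 15 of the 32 lists. Of 190 genes named with values, 177 were called, and 161 of these kept their call and sign in all alternatives that gave a value. Signs turned for Trhr (-0.29), Gap43 (-0.19) and Dlg4 (0.020) with averaged probe sets. Among uncalled genes, Syt4 was -0.033 with averaged probe sets and -0.010 after quantile normalization. Eef1a1 was 0.0056 with averaged probe sets. With 1 array left out in turn, Eef1a1 ranged from -0.084 to 0.044, Fos from -0.0011 to 0.61 and Col1a2 from -0.23 to 0.43. Col1a2 was -0.62 (adjusted p = 0.0199) without SON arrays 1 and 3. The cause was not tested.

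The number of arrays limits the precision, 4485 genes were dim in both tissues, and no detection calls were used. Those dim in both tissues included 10 of 29 potassium channel genes and 11 of 31 sodium, calcium, HCN and TRP channel genes. They also included 6 of 17 GABA genes, 5 of 10 monoamine genes and 8 of 16 immediate early genes. Whether both structures came from the same rats, the age of the probe annotation and cross-reading of related genes were not tested.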

Other observations

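Genes outside the lists, chosen after their values were seen, gave further differences. Calcium-handling proteins differed in both directions. Calb1, calbindin, a calcium buffer of magnocellular neurons, read 752, 722, 860.3 and 927 in the SON arrays and 112, 129, 127, 149 and 156 in the NIL arrays, a difference of 2.61 ± 0.10 (SE), with an adjusted p of 2.97e-11. Calb2, calretinin, read 989, 966, 856 and 971 in the SON arrays and 24, 38, 27.6, 43.7 and 18.4 in the NIL arrays (5.04 ± 0.19). S100g, a small calcium-binding protein known from intestine, read 315, 338, 384, 327 and 356 in the NIL arrays and 4.49, 4.1, 10.01 and 8.58 in the SON arrays (-5.76 ± 0.23). Camk2g, a calcium-dependent kinase, read 1884, 1569.9, 2096 and 1747 in the SON arrays and 33.3, 46, 56.4, 40.2 and 50.3 in the NIL arrays, a difference of 5.36 ± 0.14 (SE), with an adjusted p of 6.98e-13. Its RVLM mean was 36.1, so this probe set was bright in the SON and dim in both the NIL and the brainstem.

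Carriers and metabolic genes also separated the tissues. Slc6a6, the carrier of taurine, an osmolyte that pituicytes are known to release, read 2574, 2606, 2497, 2280.0 and 2358 in the NIL arrays and 261, 263, 255 and 257 in the SON arrays, a difference of -3.24 ± 0.08 (SE), with an adjusted p of 4.56e-13. Slc7a11, the cystine carrier, averaged 575 in the SON and 49.7 in the NIL (3.53 ± 0.16), and Fabp7, a fatty acid binding protein of radial glia and astrocytes, 1576 in the SON and 76.8 in the NIL (4.38 ± 0.10). Crym, a thyroid hormone binding protein, averaged 65.1 in the SON and 615 in the NIL (-3.21 ± 0.16). Cd74, the chaperone of class II antigen presentation, read 585, 567, 586, 544 and 704 in the NIL arrays and 198, 143, 145 and 116 in the SON arrays (adjusted p = 1.97e-08).

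Spread between pools of 1 tissue was measured on bright genes. Over the 6620 genes with an NIL mean of at least 100, the median SD on the log2 scale was 0.12, and over 6362 such genes in the SON it was 0.14. The genes of the NIL with the largest SD were Tshb (2.00), Prl (1.87), Gh1 (1.25), Grm8 (1.25) and Egr1 (0.76). Those of the SON were Slc47a1 (1.03), Slc13a3 (1.02), Tagln (0.97), Fos (0.97), Wnt4 (0.89) and Col1a2 (0.86).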
